A study of Mus musculus with 4 samples.

Results

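The nuclear genes for subunits of the oxidative phosphorylation machinery were followed across the immune cells of mouse lung and lung tumor. Members were the genes whose symbol begins with Nduf followed by a, b, c, s or v and a digit, with Sdha to Sdhd, with Uqcr, with Cox4 to Cox8, or with Atp5. The rule took 88 of 31053 annotated genes (87 symbols, since Atp5o stands under 2 identifiers), and no measured level entered it. They comprised 35 genes of complex I, 4 of complex II and 4 of its assembly (Sdhaf1 to Sdhaf4), 8 of complex III, 19 of complex IV, 17 of ATP synthase, and Cox7a2l. Ndufa4 and Ndufa4l2 were counted with complex IV. Over all cells, 85 members held at least 10 UMIs, while Cox7b2, Cox8c and 1 of both Atp5o identifiers held 0. In all, 49 members reached 100 CPM, the usual scale of a gene's UMIs relative to all UMIs of the same cells.

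Oxidative phosphorylation makes ATP at the inner mitochondrial membrane. Complexes I and II feed electrons from NADH and succinate to ubiquinone, complex III passes them to cytochrome c, and complex IV hands them to oxygen. Complexes I, III and IV pump protons, and ATP synthase uses the returning protons to make ATP. Most subunits are encoded in the nucleus and a smaller set in mitochondrial DNA, so a working complex needs both genomes, with complex II encoded by the nucleus alone. Mature neutrophils are known for few mitochondria and a reliance on glycolysis, and alveolar macrophages for strong oxidative and lipid metabolism.

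The cells were live CD45-positive immune cells, sorted from lungs of C57BL/6 mice and counted with the Chromium 3' v2 chemistry of 10x Genomics. The 4 groups were wild type (WT) and Rab37 knockout (KO) mice given Matrigel alone, called normal lung here, and WT and Rab37 KO mice given LLC cells, a mouse lung carcinoma line, whose lung tumors were taken; all were collected at day 14. Rab37 is a small GTPase of vesicle traffic, and the labels do not say how the knockout was made or how many mice entered a library. Each group is 1 library, so no difference can be set against a spread between animals and no test was made.

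For 4 members that bear on the comparison of tumor with normal lung below, the 250 bases before the RefSeq transcription start are shown (RefSeq, GRCm38.p6, minus strand in each case, printed 5′ to 3′ towards the start). They are the pair with the largest and the pair with the smallest tumor to normal ratio in WT monocyte/macrophage-like cells, among members of at least 100 CPM. The windows are chr3:51408956-51409205 for the complex I gene Ndufc1, chr4:123718187-123718436 for the complex I gene Ndufs5, chr17:83514334-83514583 for the supercomplex factor gene Cox7a2l, and chr4:116075071-116075320 for the complex III gene Uqcrh. Capitals mark the motif matches, described after the sequences.

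Ndufc1: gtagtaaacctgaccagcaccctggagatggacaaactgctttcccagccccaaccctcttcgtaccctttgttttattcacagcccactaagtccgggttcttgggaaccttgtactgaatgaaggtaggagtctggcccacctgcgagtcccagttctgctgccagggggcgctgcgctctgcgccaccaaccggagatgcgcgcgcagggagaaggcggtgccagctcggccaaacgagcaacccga

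Ndufs5: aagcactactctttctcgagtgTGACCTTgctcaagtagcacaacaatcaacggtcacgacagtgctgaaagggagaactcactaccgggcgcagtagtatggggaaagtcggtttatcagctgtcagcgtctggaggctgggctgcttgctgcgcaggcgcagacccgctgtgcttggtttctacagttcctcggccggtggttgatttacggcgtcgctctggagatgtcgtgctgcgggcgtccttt

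Cox7a2l: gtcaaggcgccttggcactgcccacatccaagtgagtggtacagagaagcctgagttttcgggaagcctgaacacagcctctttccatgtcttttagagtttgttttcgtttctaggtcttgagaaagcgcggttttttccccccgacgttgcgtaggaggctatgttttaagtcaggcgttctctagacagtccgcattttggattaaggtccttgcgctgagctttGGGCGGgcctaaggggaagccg

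Uqcrh: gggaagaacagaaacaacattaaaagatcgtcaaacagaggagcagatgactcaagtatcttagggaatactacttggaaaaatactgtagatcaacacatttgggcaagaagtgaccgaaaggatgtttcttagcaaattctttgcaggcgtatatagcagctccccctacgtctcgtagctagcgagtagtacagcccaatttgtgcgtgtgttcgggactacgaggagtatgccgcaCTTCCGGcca

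The searched motifs were the NRF1 core GCATGCGC, the ETS site of GABPA CCGGAAG, the ERR element AAGGTCA, the SP1 GC box GGGCGG and the YY1 core AAGATGG, each on both strands. None overlaps another in the 4 windows. Ndufs5 carries an ERR element from position -228 to -222, Cox7a2l a GC box from -22 to -17 and Uqcrh an ETS site from -10 to -4, while none of these letters lies in the Ndufc1 window. By GENCODE vM21 (mm10), Ndufc1 spans 51404677 to 51408988 of chromosome 3 and Ndufs5 123712710 to 123718202 of chromosome 4. Uqcrh spans 116066965 to 116075071 of chromosome 4 and Cox7a2l 83501918 to 83517330 of chromosome 17. The last 33, 16 and 1 bases of the Ndufc1, Ndufs5 and Uqcrh windows lie in the annotated first exons. All 250 bases of the Cox7a2l window lie inside the annotated gene and 0 in an exon, because GENCODE places a start further upstream.

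Promoters of 70 of the 87 symbols were in the table. The NRF1 core was found in 8 of them (11.4%, against 2.32% of all 27025 promoters of the same length) and the ETS site in 13 (18.6%, against 7.05%). The ERR element was found in 5 (7.14%, against 4.05%), the GC box in 27 (38.6%, against 32.9%) and the YY1 core in 0 (0%, against 4.53%). A match is a description of letters and not a measured binding site.

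The deposited matrices held 5594, 5063, 674 and 3065 barcodes for normal WT, then normal Rab37 KO, then tumor WT and last tumor Rab37 KO, an order kept below. Cells with at least 200 genes, at most 10% mitochondrial UMIs and no doublet call numbered 5063, 4646, 644 and 2725, with median depths between 3979 and 6556 UMIs. Rab37 itself held 292, 13, 24 and 8 UMIs, or 8.50, 0.385, 4.63 and 0.266 CPM. Both normal libraries mixed cells with Xist and cells with Y-linked transcripts, but the tumor WT library held 417 cells with Xist alone and 0 with Y-linked genes alone, and the tumor Rab37 KO library 33 and 1662. In the tumor comparison of KO with WT, sex and genotype cannot be told apart, nor can tissue and software version in any comparison of tumor with normal lung (3.0.1 for normal, 3.1.0 for tumor, per the file headers). Each library shared between 2 and 11 cell barcodes with another. Cells were clustered without the members, and clusters were named from marker genes with the ending "-like". The 13 neutrophil markers took between 14.1% and 17.1% of the UMIs of neutrophil-like cells. Besides immune classes, fibroblast-like, endothelial-like and epithelial-like clusters of 125, 79 and 50 cells were present behind the CD45 gate. Cluster 27, left unnamed for its cycling markers, held 12 tumor WT and 44 tumor Rab37 KO cells and no normal ones. It was led by Rhox5, Col3a1 and Cald1, and its best marker score was fibroblast-like. Its median depth was 74630 UMIs, and its UMIs enter the levels over all cells. Intervals in parentheses are exact 95% ones and cover counting error only. They are Poisson intervals for levels, Clopper-Pearson intervals for shares of cells and conditional binomial intervals for a ratio. Amplified tags are independent molecules only as far as UMIs separate them.

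Neutrophil-like cells held the lowest summed level of the nuclear subunit genes in every library. The summed level, the percent of a class's UMIs that came from the 88 genes, was 0.692% (0.675 to 0.709), 0.669% (0.657 to 0.682), 0.822% (0.799 to 0.846) and 0.604% (0.598 to 0.609) in neutrophil-like cells. It was 1.44% (1.43 to 1.45), 1.30% (1.29 to 1.31), 2.14% (2.12 to 2.16) and 1.40% (1.40 to 1.41) in monocyte/macrophage-like cells, the class of monocytes and non-alveolar macrophages. Monocyte/macrophage-like cells thus stood at 2.08, 1.94, 2.61 and 2.32 times the neutrophil-like level of their own library. Their normal levels lie close together, and tumor WT stands above the other 3 libraries.

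NK-like and alveolar macrophage-like cells were the highest classes of normal lung. NK-like cells held 2.08%, 1.89%, 1.79% and 1.66%, so that their tumor levels lay below their normal levels. Alveolar macrophage-like cells held 2.00% and 1.85% in normal lung and 1.82% in tumor Rab37 KO, and the 24 such cells of tumor WT held 2.77%. T-like cells held 1.46%, 1.39%, 1.69% and 1.67%, and B-like cells 1.36%, 1.33%, 1.28% and 1.13%. Dendritic cell-like cells held 1.56%, 1.48%, 2.03% and 1.81%, and the ILC2-like cells of the normal libraries 1.56% and 1.46%. T-like and dendritic cell-like cells were therefore higher in both tumor libraries than in both normal ones, while B-like and NK-like cells were lower. Behind the tumor WT and tumor Rab37 KO values stood 55 and 80 T-like and 29 and 68 dendritic cell-like cells. They also rest on 55 and 65 B-like and 26 and 59 NK-like cells. The T-like difference in WT depends on the scaling and the class assignment, as given below. In normal WT the monocyte/macrophage-like and T-like levels lay next to each other, as did the dendritic cell-like and ILC2-like levels.

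**Figure D1:**
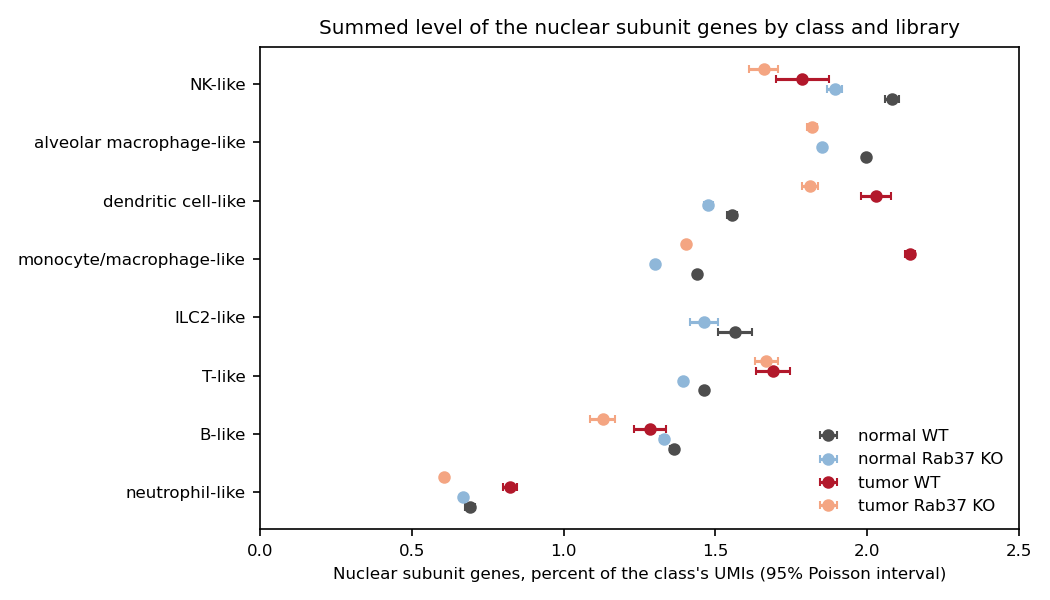
Percent of a class's UMIs from the 88 nuclear subunit genes (x axis) in each class (y axis) and library (colour), with 95% Poisson intervals as bars; class and library combinations under 25 cells are not drawn. Neutrophil-like cells lie between 0.604% and 0.822%, and the tumor WT point of monocyte/macrophage-like cells, at 2.14%, stands apart from the other 3.

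Medians over single cells put both classes in the same order. The median neutrophil-like cell held 0.666% (quartiles 0.501 to 0.839), 0.648%, 0.682% (0.521 to 0.977) and 0.537% (0.405 to 0.704). The median monocyte/macrophage-like cell held 1.39% (1.13 to 1.66), 1.23% (0.951 to 1.55), 2.01% (1.69 to 2.43) and 1.28% (0.958 to 1.69). Depth moved with class: the median was 2236, 2611, 2144 and 3492 UMIs in neutrophil-like and 6312, 7287, 9305 and 13236 in monocyte/macrophage-like cells. After each cell was thinned to 1500 UMIs, the monocyte/macrophage-like level was still 2.02, 1.80, 2.49 and 2.33 times the neutrophil-like level, leaving out 25, 26, 43 and 46 shallower neutrophil-like cells and 19, 24, 14 and 35 of the other class.

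All 5 complexes shared the low neutrophil-like level. In normal WT, the genes of complex I summed to 1595 CPM in neutrophil-like and 3538 CPM in monocyte/macrophage-like cells, and those of complex III to 575.0 and 1589 CPM. Complex IV genes summed to 2370 and 4192 CPM and ATP synthase genes to 2117 and 4408 CPM. The complex II genes, Sdha to Sdhd, summed to 152.5 and 238.2 CPM. The gap between the classes was thus widest for complex III and narrowest for complex II. Among members that reached 50 CPM in some class, neutrophil-like cells were the lowest class for 67 of 76, 67 of 76, 63 of 75 and 66 of 74. The highest class was alveolar macrophage-like for 35 and NK-like for 32 of 76 in normal WT, against 36 and 29 in normal Rab37 KO. In tumor WT, where alveolar macrophage-like cells were too few to enter, the monocyte/macrophage-like class was highest for 38 of 75. In tumor Rab37 KO it was highest for 0 of 74, the alveolar macrophage-like class for 32 and the dendritic cell-like class for 19. The same lowest and highest counts were not made over all genes, so they do not set the members apart from other genes.

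Members differed widely in how far they separated the classes. Ndufa11, an accessory complex I subunit of the membrane arm (chromosome 17, 56717767 to 56722141, plus strand), was counted at 130.6 CPM in alveolar macrophage-like and 2.20 CPM (2 UMIs) in neutrophil-like cells of normal WT, a ratio of 59.5 (16.4 to 491.8). Its neutrophil-like level was 2.20, 5.06, 22.5 and 17.7 CPM, low in all 4 libraries. Ndufa5, an accessory complex I subunit, stood at 107.8 against 3.29 CPM (3 UMIs, ratio 32.7, 11.2 to 159), and Sdhaf1, a complex II assembly factor, at 104.0 CPM in B-like against 3.29 CPM (3 UMIs, ratio 31.6, 10.7 to 154.1). At the other end, Ndufa7 of complex I stood at 214.0 CPM in NK-like and 163.1 CPM in B-like cells (ratio 1.31, 1.13 to 1.52). Atp5l, the g subunit of ATP synthase, had a ratio of 1.65 (1.55 to 1.76; 675.1 CPM in alveolar macrophage-like against 409.9 CPM in B-like cells) and Ndufb9 of complex I one of 1.72 (1.51 to 1.96). Neutrophil-like cells were not depleted of every member: Cox8a, a small complex IV subunit, was counted there at 732.0, 645.5, 716.6 and 555.1 CPM, near its 639.5 CPM in monocyte/macrophage-like cells of normal WT. Ndufa11, Sdhaf1 and Ndufb9 each share their locus with another counted gene, and no source used here gives the strand setting of the counting, so their counts may be divided or merged.

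The 5 members with the most UMIs over all cells were Cox4i1 (720.3 CPM), Cox8a (701.6 CPM), Atp5e (680.8 CPM), Cox7c (561.5 CPM) and Uqcrh (537.6 CPM). Cox4i1, Cox8a and Cox7c belong to complex IV, and Atp5e is the epsilon subunit of ATP synthase. A 3' library gives 1 tag to a molecule whatever its length, so CPM is not divided by length here. Of all members, 7 overlap another counted gene on the same strand, Cox4i1 among them.

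In WT mice, the nuclear subunit genes were higher in tumor than in normal monocyte/macrophage-like cells. Their summed level was 1.49 times as high (1.47 to 1.503), from 1.44% to 2.14% of UMIs. A member needed 10 UMIs in the sum of both libraries to be measured, and a change of 1.5-fold to be called higher or lower. Of 82 measured members, 48 were higher and 2 lower, against 20.9% of all 11212 measured genes higher and 26.8% lower. The members' median log2 ratio was 0.65 and that of all genes -0.09. Of the 77 members with at least 100 UMIs, 44 were higher and 1 lower, against 18.2% and 24.5% of the 6409 genes at that limit.

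Every complex had a summed ratio above 1. The ratio of the summed genes was 1.69 for complex I, with 23 of 35 members higher, and 1.51 for complex IV, with 10 of 14 higher and 1 lower. It was 1.48 for complex II (1 of 4 higher), 1.44 for ATP synthase (8 of 16 higher) and 1.39 for complex III (4 of 8 higher). The order depends on the measure: the median log2 ratio of the members was 0.72 for complex IV, 0.67 for III, 0.66 for I, 0.57 for ATP synthase and 0.31 for II. Among the complex II genes, Sdhb, the iron-sulfur subunit, stood at 66.7, 59.8, 158.0 and 85.7 CPM, while Sdha, the flavoprotein subunit, stood at 68.5, 68.0, 66.2 and 57.8 CPM. Sdha and Sdhb, chosen after their values were seen, therefore did not move together. Of the 82 measured members, 73 lay above 1 in WT.

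Ndufc1, a small accessory subunit of complex I, was counted at 71.0, 62.0, 236.5 and 108.3 CPM in monocyte/macrophage-like cells of the 4 libraries. Its tumor to normal ratio in WT was 3.33 (2.91 to 3.82), the largest among members of at least 100 CPM. Ndufs5, an accessory complex I subunit, stood at 71.9, 63.7, 202.5 and 90.9 CPM (2.82, 2.45 to 3.24). Ndufv3, an accessory subunit of the NADH-oxidising arm, stood at 81.0, 68.8, 223.4 and 152.4 CPM (2.76, 2.42 to 3.15). Tumor WT was the highest of the 4 libraries for these 3 genes, and tumor Rab37 KO the second. Atp5g1, one of 3 genes for the c ring of ATP synthase, followed with 158.3, 149.6, 391.9 and 216.1 CPM (2.48, 2.25 to 2.73).

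Cox7a2l, known as a factor that joins complex III and complex IV into supercomplexes, went the other way. Only its transcript was counted, so nothing is shown about supercomplexes in these mice. The Cox7a2l level was 366.7, 352.9, 154.4 and 192.9 CPM, so that both tumor libraries lay below both normal ones. The WT ratio was 0.42 (0.38 to 0.47), the smallest among members of at least 100 CPM, and the Rab37 KO ratio 0.55 (0.51 to 0.58). Uqcrh, the hinge subunit of complex III, stood at 591.3, 555.4, 446.1 and 408.2 CPM, with ratios of 0.75 (0.70 to 0.81) and 0.73 (0.70 to 0.77). Cox4i1, the common form of subunit 4 of complex IV, had a WT ratio of 0.79 (0.74 to 0.84) and Ndufa6 of complex I one of 0.89 (0.80 to 0.99). Uqcrh, Cox4i1 and Ndufa6 did not reach 1.5-fold. The promoters of Ndufc1, Ndufs5, Cox7a2l and Uqcrh are the 4 printed above.

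In Rab37 KO mice the same class differed less between tumor and normal lung. The summed level was 1.08 times as high (1.07 to 1.09), from 1.30% to 1.40%. Of 84 measured members, 5 were higher and 2 lower, against 17.6% of all measured genes higher and 22.7% lower, although 65 of the 84 lay above 1. The median log2 ratio was 0.18, and -0.07 for all genes. By complex the ratios were 1.16 for I, 1.20 for II, 1.00 for III, 1.07 for IV and 1.09 for ATP synthase. Ndufv3 had the largest named ratio (2.22, 1.96 to 2.52), followed by Ndufc1 (1.75, 1.53 to 2.00), Ndufb9 (1.53, 1.39 to 1.70) and Ndufb8 (1.47, 1.32 to 1.63). The lowest were Cox7a2l, Ndufa6 (0.68, 0.63 to 0.74), Uqcrh and the Rieske iron-sulfur subunit gene Uqcrfs1 (0.78, 0.70 to 0.87). No test of the difference between the genotypes was possible.

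The clusters behind the class were not the same in both tissues. Cluster 6, led by Arg1, Ppbp and Pf4, held 167 of 223 class cells of the WT tumor and 537 of 831 of the KO tumor, but 1 of 562 and 3 of 493 in normal lung. Within clusters present on both sides, the WT ratio was 1.26 (1.22 to 1.30) in the classical monocyte cluster 12 and 1.53 (1.48 to 1.58) in cluster 14, led by complement C1q genes and holding 10 tumor WT cells. The Rab37 KO ratio was 1.13 in cluster 12, 1.43 in cluster 14, 1.26 in the nonclassical cluster 17 and 0.93 in the nonclassical cluster 13. With shared clusters weighted alike, it was 1.40 in WT and 1.27 in Rab37 KO. Without cluster 6 it was 1.45 and 1.24. The 10 macrophage markers took 0.843%, 0.998%, 2.12% and 0.944% of the class's UMIs and the 13 neutrophil markers 0.742%, 1.10%, 0.997% and 2.36%, with Camp alone at 0 in normal WT. The 8 nonclassical monocyte markers took 0.208%, 0.195%, 0.0485% and 0.0619%. The part of these shifts in the ratios was not tested beyond the values given.

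Ribosomal protein and mitochondrial transcripts took a smaller part of tumor UMIs, which scales every other gene up. Leaving both out moved the log2 ratio of the remaining genes by -0.13 in WT and -0.11 in Rab37 KO monocyte/macrophage-like cells. The summed ratio then was 1.36 in WT, with 35 members higher and 2 lower, and 1.00 in Rab37 KO, with 4 higher and 3 lower. The shares of all genes were not counted under this scaling, which shifts them too. Restricting both sides to cells with transcripts of the sex found in the tumor library gave 1.44 and 1.10, with 195 tumor WT and 645 tumor Rab37 KO cells.

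In neutrophil-like cells the tumor to normal ratio lay above 1 in WT and below 1 in Rab37 KO. It was 1.19 (1.14 to 1.23) in WT, with 26 of 72 measured members higher and 0 lower, where 39.9% of all genes were higher and 14.6% lower. In Rab37 KO it was 0.90 (0.88 to 0.92), with 16 of 78 higher and 3 lower, where 37.8% of all genes were higher and 11.9% lower. The shares of members higher were thus no greater than those of all genes. Median log2 ratios were 0.44 in WT, beside 0.37 for all genes, and 0.01 in Rab37 KO, beside 0.31 for all genes. With at least 100 UMIs, the medians in WT were 0.25 for 34 members and 0.02 for 1580 genes. There 6 members were higher and 0 lower, beside 20.8% and 21.6% of genes. In Rab37 KO the medians at that limit were -0.003 for 69 members and 0.20 for 4788 genes. There 11 members were higher and 2 lower, beside 30.6% and 12% of genes. By complex the WT ratios were 1.34 for I, 0.99 for II, 1.41 for III, 1.12 for IV and 1.11 for ATP synthase. Those of Rab37 KO were 0.95, 1.02, 1.04, 0.86 and 0.86.

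Different clusters held the neutrophil-like class in normal and tumor tissue. Cluster 3 held 368 of 383 and 544 of 559 normal cells, and clusters 7, 8 and 16 together nearly all tumor cells. The neutrophil markers took 14.1%, 15.5%, 17.1% and 15.7% of UMIs in the class. The 10 macrophage markers took 0.0779%, 0.0616%, 0.115% and 0.0795%. The part of the cluster change in the ratios was not tested, since the WT libraries share no cluster with enough cells.

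Named members of neutrophil-like cells show how uneven the class was. Atp5f1, the b subunit of the ATP synthase stalk, stood at 116.3, 129.6, 202.5 and 161.7 CPM (1.74, 1.33 to 2.29, in WT and 1.25, 1.08 to 1.45, in Rab37 KO). Atp5j, Cox7c and Uqcrq had WT ratios of 1.68, 1.63 and 1.55. Both tumor libraries were above both normal ones for Atp5f1 only among these 4. Atp5e stood at 481.8, 426.1, 386.0 and 274.4 CPM, lower in both tumor libraries (0.80 in WT and 0.64 in Rab37 KO), and Cox4i1 at 364.3, 347.7, 283.9 and 282.4 CPM (0.78, 0.64 to 0.94, in WT). In Rab37 KO, the complex I genes Ndufa3 (0.60, 0.52 to 0.70), Ndufa2 (0.68) and Ndufa13 (0.72) were the other named low members. Cox7a2l, so much lower in tumor monocyte/macrophage-like cells, stood at 93.3, 109.4, 93.5 and 110.3 CPM here, with ratios of 1.00 (0.70 to 1.43) and 1.01 (0.86 to 1.20).

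**Figure D2:**
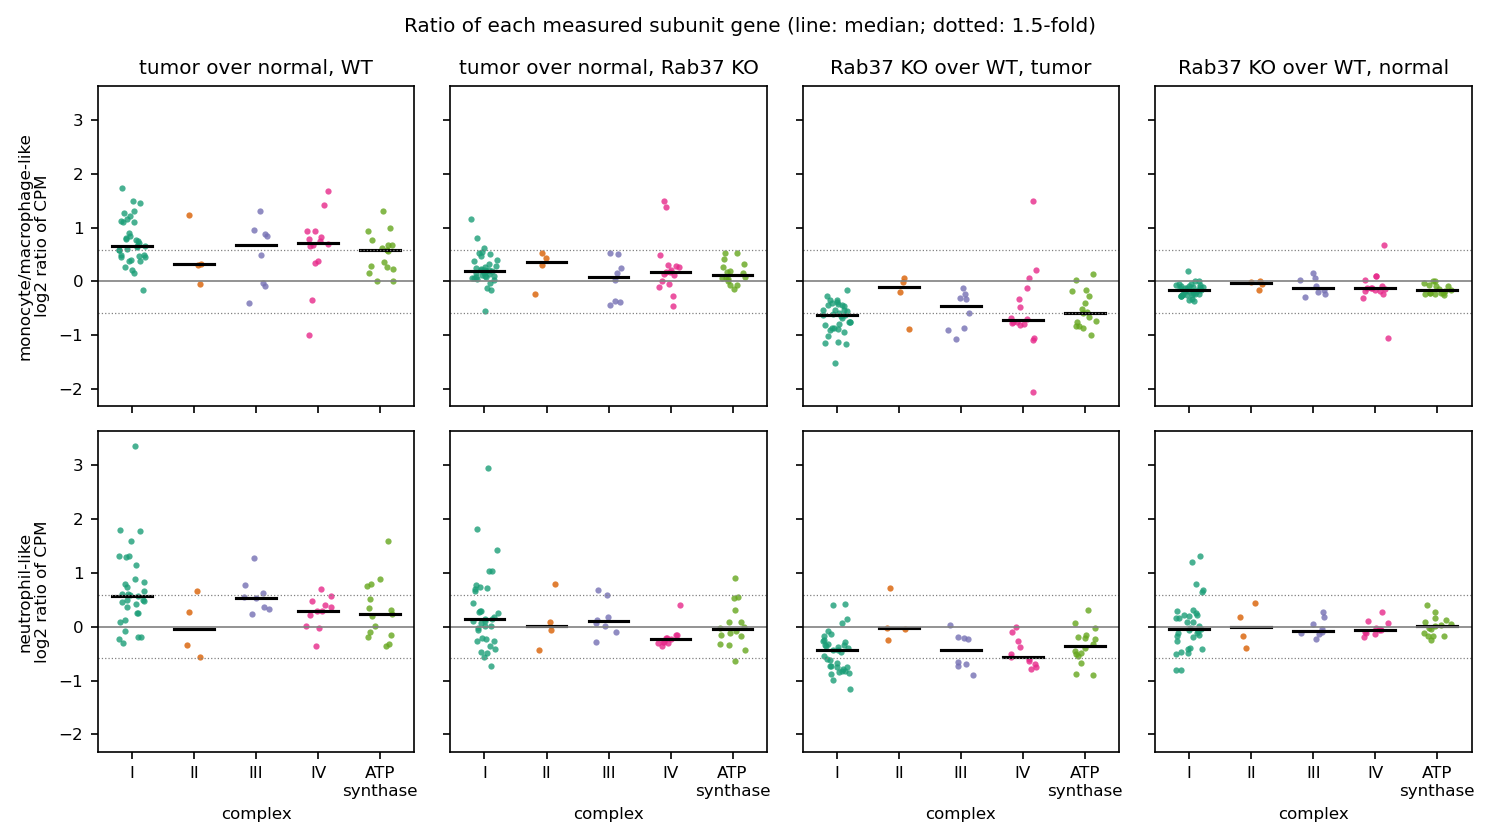
Log2 ratio of CPM (y axis) of each measured member, by complex (x axis), for the 4 comparisons (columns) in monocyte/macrophage-like (top) and neutrophil-like cells (bottom); black lines are medians, dotted lines 1.5-fold. In monocyte/macrophage-like cells, 48 of 82 members lie above the upper line for tumor over normal in WT and 45 of 84 below the lower line for Rab37 KO over WT in tumor.

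T-like cells of the tumors, 55 in WT and 80 in Rab37 KO, stood at 1.16 (1.12 to 1.20) and 1.20 (1.17 to 1.23) times their normal level. In WT, 16 of 79 members were higher and 4 lower, beside 37.2% and 9.43% of all genes. In Rab37 KO, 14 of 80 were higher and 0 lower, beside 26.9% and 10.9%. Without ribosomal protein and mitochondrial UMIs, which shift all log2 ratios by -0.33 and -0.24, the ratios were 0.92 and 1.01 and the counts 6 higher and 8 lower, and 5 higher and 3 lower. The direction of the summed T-like ratio in WT thus depends on the scaling. It also changed when classes were taken from each cell's own markers. The Rab37 KO ratio lies near 1 without these UMIs. Shares of all genes were not counted without these UMIs. The clusters of the class also differed by tissue. Clusters 2 and 9, at 1.31% and 1.28% in normal WT, held 530 and 316 of 1492 normal WT cells but 8 and 7 of 55 tumor WT cells, and 8 in each of 80 tumor cells of Rab37 KO. Within cluster 4, led by Xcl1 and Ccl5, the ratio was 1.11 (1.05 to 1.18) in WT and 1.03 (0.998 to 1.07) in Rab37 KO. Within cluster 10, which holds the regulatory T cell gene Foxp3 among its leading genes, it was 1.10 (1.04 to 1.15) and 1.19 (1.14 to 1.24). These clusters held between 17 and 40 tumor cells in a library. Cluster 15 scored best for T-like markers but was left unnamed and out of the class. Its top 10 genes held more plasma cell-like than T-like markers. It held 125, 118, 3 and 2 cells, at 1.98% in normal WT and 1.79% in normal Rab37 KO. Its absence from the T-like ratios was not tested.

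Single members of T-like cells exceeded that shift. Uqcr11, a small complex III subunit, stood at 88.2, 82.5, 218.1 and 154.3 CPM (2.47, 1.79 to 3.35, and 1.87, 1.44 to 2.39). Ndufb7 of complex I stood at 124.4, 118.8, 247.2 and 195.6 CPM (1.99 and 1.65). Cox7a2l stood at 489.6, 533.1, 203.6 and 356.5 CPM (0.42, 0.30 to 0.56, and 0.67, 0.57 to 0.78), so here too both tumor libraries were below both normal ones. In WT, Sdhb (2.39) and Ndufb4 (1.93) were the other named high members, and Cox4i1 (0.63) and Uqcrh (0.78) the other low ones. In Rab37 KO, the named high members included Ndufa4 (1.65) and the ATP synthase delta subunit gene Atp5d (1.58), and Ndufa6 (0.78) was low. The 13 neutrophil markers took 0.00313%, 0.0105%, 0.203% and 0.0752% of T-like UMIs and the 10 macrophage markers 0.00751%, 0.00705%, 0.169% and 0.0387%, higher in both tumor libraries. Their part in the T-like values was not tested.

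The lower Cox7a2l level in tumor was found in some classes and not in others. Dendritic cell-like cells had ratios of 0.66 (0.52 to 0.84) in WT and 0.64 (0.56 to 0.73) in Rab37 KO, and alveolar macrophage-like cells 0.87 (0.81 to 0.95) in Rab37 KO. In B-like cells the ratios were 0.79 (0.59 to 1.03) and 0.87 (0.69 to 1.08), and in NK-like cells 1.02 (0.65 to 1.51) and 0.89 (0.69 to 1.13), with intervals that include 1. The difference between classes was not tested.

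Alveolar macrophage-like cells of Rab37 KO mice differed little between tumor and normal lung. The summed ratio was 0.98 (0.97 to 0.99), with 0 of 82 members higher and 1 lower, beside 9.8% and 8.06% of all genes. The named members with the largest ratios were the complex I genes Ndufb7 (178.1 to 237.7 CPM, ratio 1.34), Ndufb9 (1.33), Ndufb11 (1.26) and Ndufs6 (1.22). The smallest were Ndufb6 (0.80), Uqcrfs1 (0.80), Sdha (0.84) and Cox7b (0.86). Among the smaller classes, the summed tumor to normal ratio was 1.31 in WT and 1.23 in Rab37 KO for dendritic cell-like cells, 0.94 and 0.85 for B-like cells and 0.86 and 0.88 for NK-like cells.

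Between the tumor libraries, the nuclear subunit genes were lower in Rab37 KO than in WT monocyte/macrophage-like cells. The summed level was 0.65 times as high (0.65 to 0.66). Of 84 measured members, 45 were lower and 1 higher, beside 20.7% of all genes lower and 22% higher, and 76 lay below 1. The median log2 ratio was -0.60, and 0.00 for all genes. This comparison and the tumor to normal comparison in WT share the tumor WT library, so neither supports the other. By complex the ratio was 0.61 for I (21 of 35 members lower), 0.64 for IV (10 of 16 lower), 0.66 for III (4 of 8), 0.68 for ATP synthase (8 of 16) and 0.78 for II (1 of 4).

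Ndufa5, an accessory complex I subunit, had the smallest named ratio, 0.35 (0.30 to 0.40), with 54.1, 42.2, 126.2 and 43.9 CPM. Its tumor Rab37 KO level lay between those of the normal libraries. Ndufb2 stood at 66.7, 58.9, 163.8 and 73.4 CPM (0.45, 0.40 to 0.50), and Ndufs5 (0.45) and Ndufc1 (0.46) followed. The abundant members Cox8a (639.5, 564.0, 1102 and 651.7 CPM), Atp5e (709.2, 593.2, 1092 and 610.3 CPM) and Cox7c (538.8, 487.1, 948.3 and 453.8 CPM) had ratios of 0.59, 0.56 and 0.48. For these members tumor WT stood alone, and the tumor Rab37 KO value was near the normal ones. The members with named ratios above 1 were Cox7a2l (1.25, 1.13 to 1.39), Cox4i1 (1.15, 1.09 to 1.22) and Atp5b, the catalytic beta subunit of ATP synthase (1.10, 1.02 to 1.19).

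Other transcripts moved with this result. The neutrophil markers took 0.997% of the class's UMIs in the WT tumor and 2.36% in the KO tumor, with 9 of 13 higher and 3 lower. The macrophage markers took 2.12% and 0.944% (1 of 10 higher, 4 lower) and the 6 platelet markers 0.0756% and 0.275%, with Gp1bb at 0 in both. Over cells with under 1% of neutrophil marker UMIs, 191 and 481 cells, the ratio was 0.74, from 2.19% to 1.62%. Within cluster 6 it was 0.60 (0.59 to 0.61), where the neutrophil markers took 0.524% and 2.45%, within cluster 12 0.85 (0.82 to 0.88) and within cluster 14 0.79 (0.77 to 0.82; 10 tumor WT cells). Without cluster 6 it was 0.77. The ratio therefore lay below 1 in every one of these subsets and was closer to 1 in most of them. Sex differed too: within the normal libraries, cells with Xist held 1.03 (1.01 to 1.05) and 1.05 (1.03 to 1.07) times the level of cells with Y-linked genes in this class, but the tumor libraries hold no such comparison.

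In tumor neutrophil-like cells the KO/WT ratio was 0.73 (0.71 to 0.76), with 29 of 78 members lower and 1 higher, beside 21.6% and 14.2% of all genes. Median log2 ratios were -0.41 and -0.07. The named members were Uqcr10, a small complex III subunit (96.6, 82.2, 141.9 and 76.6 CPM, ratio 0.54, 0.43 to 0.69), Atp5j (0.54), Cox7c (0.59) and Ndufa7 (0.59). For Uqcr10 the tumor WT library was again the highest and the tumor Rab37 KO library the lowest. Within clusters the summed ratio was 0.57 (0.54 to 0.60) in cluster 7, led by Cxcl3 and Ccl3, 0.78 (0.75 to 0.82) in cluster 8 and 0.94 in cluster 16, led by the granule genes Camp, Ngp and Ltf. Other transcripts moved with this result too. The 5 erythroid markers took 0.00606% in tumor WT (35 UMIs, with Alas2 at 0) and 0.0374% in the KO tumor (2803 UMIs). The 7 cycling genes took 0.000692% (4 UMIs, with 4 genes at 0) and 0.00221% (166 UMIs). For these lists single genes are not called, because the tumor WT library held too few UMIs of them. The 8 classical monocyte markers took 0.0274% (158 UMIs) and 0.0556% (4166 UMIs), with 6 of 8 higher. The 10 macrophage markers took 0.115% and 0.0795% (2 higher and 4 lower of 10). In normal Rab37 KO, the 27 neutrophil-like cells with Xist held 0.75 (0.68 to 0.83) times the summed level of the 192 with Y-linked genes. The part of these in the KO/WT ratio was not tested.

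In T-like cells the KO/WT ratio in tumor was 0.99 (0.95 to 1.03), with 6 of 77 members higher and 5 lower, beside 17.7% and 20.1% of all genes. Cox7a2l (1.75, 1.24 to 2.52), Cox4i1 (1.67), Ndufa4 (1.37) and Uqcrh (1.27) were the named high members there, and Ndufb4 (0.51), Cox7a2 (0.67), Cox5a (0.73) and Atp5e (0.80) the low ones. The 24 alveolar macrophage-like cells of tumor WT were too few to enter. B-like, NK-like and dendritic cell-like cells had summed ratios of 0.88, 0.93 and 0.89.

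Between the normal libraries the differences were small. The KO/WT ratio was 0.90 (0.89 to 0.91) in monocyte/macrophage-like cells, with 1 of 83 members higher and 1 lower, beside 7.37% and 7.81% of all genes. Alveolar macrophage-like cells had a ratio of 0.93 (0.92 to 0.93; 1 of 82 higher and 0 lower, beside 3.67% and 6.33%) and T-like cells one of 0.95 (0.94 to 0.96; 1 of 80 higher and 2 lower, beside 6.99% and 5.99%). The neutrophil-like ratio was 0.97 (0.94 to 1.00), with 6 of 75 higher and 2 lower, beside 15.7% and 11%. Few members passed 1.5-fold, but most lay on one side: 72 of 83, 70 of 82 and 61 of 80 were below 1 in the first 3 classes, against 41 of 75 in neutrophil-like cells. The members' median log2 ratios were -0.15, -0.10, -0.07 and -0.04 in these 4 classes, beside 0.03, -0.01, 0.02 and 0.03 for all measured genes. The lowest named members in monocyte/macrophage-like cells were Ndufb3 (121.5 and 96.7 CPM, ratio 0.80), Cox5a (0.81), Uqcr11 (0.82) and Ndufb11 (0.83). Those of alveolar macrophage-like cells were Ndufa3 (0.84), Cox6b2 (0.84), Ndufa1 (0.86) and Ndufb11 (0.86), with Sdha (1.10) high, and those of T-like cells Ndufb3 (0.84), Uqcrb (0.84), Atp5g2 (0.87) and Ndufa3 (0.88), with Cox7a2l (1.09) high. Cox8a and Atp5e (both 0.88) were low in neutrophil-like cells. Mitochondrially encoded transcripts took a larger share in normal Rab37 KO than in normal WT in the first 3 classes. Without mitochondrial and ribosomal protein UMIs the ratios of these classes were 0.88, 0.92 and 0.94.

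The 13 subunit genes encoded in mitochondrial DNA followed the nuclear genes in some classes and comparisons and not in others. In monocyte/macrophage-like cells they took 3.26%, 3.70%, 1.69% and 3.54% of UMIs, so that tumor WT was lowest where the nuclear genes were highest. The tumor to normal ratio of their sum was 0.52 in WT and 0.96 in Rab37 KO. In WT, 8 of 13 were lower and 2 higher, beside 26.8% and 20.9% of all genes. The KO/WT ratio in tumor was 2.10, with 10 of 13 higher and 1 lower, beside 22% and 20.7% of all genes. mt-Co3, a core subunit of complex IV, was counted at 5217 CPM in normal WT, at 1958 in tumor WT and at 5328 CPM in the KO tumor. mt-Atp8 of ATP synthase went against the others in WT, from 128.5 to 328.3 CPM.

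In neutrophil-like cells the mitochondrially encoded genes took 0.678%, 0.661%, 0.922% and 2.45% of UMIs, so that in normal lung both sets were lower there than in monocyte/macrophage-like or T-like cells. Tumor Rab37 KO stood far above the other 3 libraries, and its ratio to normal Rab37 KO was 3.70, with 13 of 13 genes higher, beside 37.8% of all genes. mt-Nd4l was 9.75 times as high (27.2 to 265.1 CPM) and mt-Co2 4.09 times (1113 to 4553 CPM). In WT the ratio was 1.36, above 1 like that of the nuclear genes (1.19). There 6 of 13 were higher, near the share of all genes (39.9%), and mt-Atp8 stood at 22.0 and 199.1 CPM. The KO/WT ratio in tumor was 2.66, with 10 of 13 higher, beside 14.2% of all genes. T-like cells held 4.24%, 4.95%, 1.96% and 3.83%, with tumor to normal ratios of 0.46 and 0.78.

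The ratio of nuclear to mitochondrially encoded UMIs sums up both patterns. It was 1.02 (0.98 to 1.06), 1.01, 0.89 (0.86 to 0.93) and 0.25 (0.24 to 0.25) in neutrophil-like cells and 0.44, 0.35, 1.27 (1.25 to 1.28) and 0.40 in monocyte/macrophage-like cells. In T-like cells it was 0.35, 0.28, 0.86 and 0.44, and in alveolar macrophage-like cells 0.55, 0.43, 0.98 (24 cells) and 0.41. The limit of 10% mitochondrial UMIs per cell bounds the denominator. With a limit of 5% the neutrophil-like values were 1.54, 1.32, 1.02 and 0.31, and with no limit 0.87, 0.72, 0.85 and 0.22. Tumor Rab37 KO was the lowest for neutrophil-like cells, and tumor WT the highest for monocyte/macrophage-like cells, under all 3 limits.

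**Figure D3:**
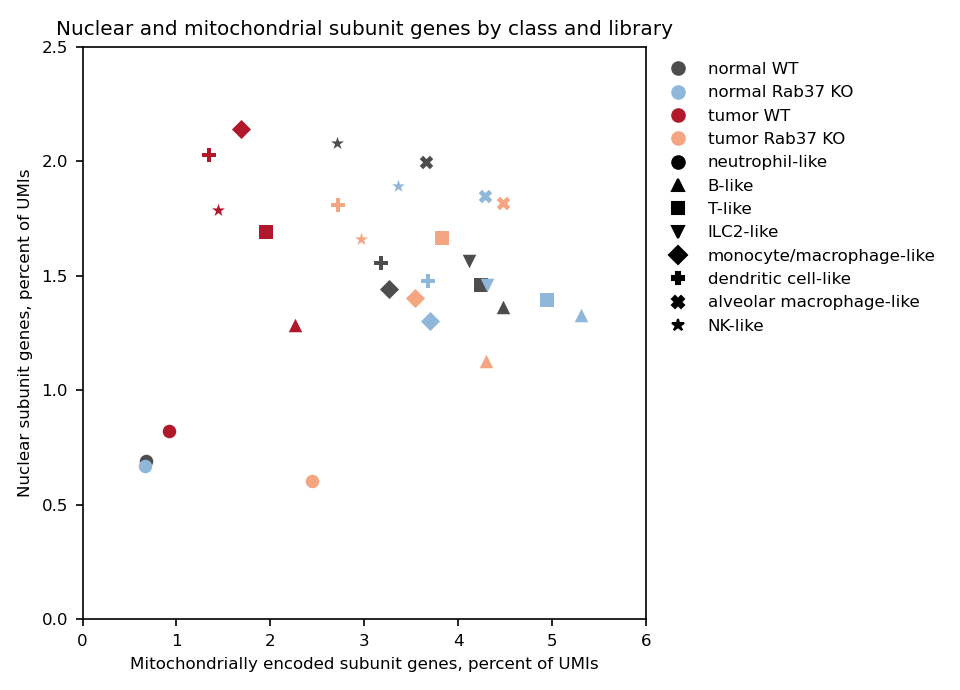
Percent of UMIs from the 88 nuclear subunit genes (y axis) against percent from the 13 mitochondrially encoded subunit genes (x axis), 1 point for each class (shape) and library (colour) of at least 25 cells. Neutrophil-like cells of tumor Rab37 KO lie to the right of the other neutrophil-like points at 2.45%, and the tumor WT monocyte/macrophage-like point lies at the upper left.

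Several complex IV subunits have a common form and a form restricted to few tissues. Cox6a2, the form of subunit 6a known from heart and skeletal muscle (chromosome 7, 128205435 to 128206387, minus strand), was counted mostly in 1 cluster of 45 dendritic cell-like cells. This cluster 29, led by Siglech, a gene of plasmacytoid dendritic cells, held 399 of 578 Cox6a2 UMIs (69.0%), at 1121 CPM (1014 to 1237). Cox6a2 was left out of the genes used for clustering but was among the cluster's leading genes. There, 39 of 45 cells (86.7%, 73.2 to 94.95) held a UMI at a median depth of 7171 UMIs. In alveolar macrophage-like cluster 0, at a median depth of 11810 UMIs, 15 of 1804 cells did (0.832%, 0.466 to 1.37), and in neutrophil-like cells 0 of 2468 (upper limit 0.149%).

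Cox6a2 was found in this cluster in every library. The 21 normal WT cells held 198 UMIs (1327 CPM, 20 cells with a UMI), the 18 normal Rab37 KO cells 125 (771.3 CPM, 14 cells), the 2 tumor WT cells 46 and the 4 tumor Rab37 KO cells 30. Of the cluster's Cox6a1 and Cox6a2 UMIs together, Cox6a2 took 80.8% (77.0 to 84.2), against 0.32% in cluster 0. The other dendritic cell-like cluster, 11, held 1 Cox6a2 UMI in 454 cells, and epithelial-like cluster 28 held 49 UMIs (93.5 CPM). Cox6a2 overlaps Itgad on the opposite strand, so its reads cannot be assigned with certainty where counting ignores strand.

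Cox6b2, the form of subunit 6b known from testis (chromosome 7, 4751792 to 4753094, minus strand), was a gene of alveolar macrophage-like and fibroblast-like cells. Of its 2899 UMIs, 71.5% lay in cluster 0, where 52.7% of cells held one, and fibroblast-like cluster 18 reached 147.7 CPM. In alveolar macrophage-like cells it stood at 104.7, 88.1, 28.0 and 67.4 CPM, or 14.8%, 13.2%, 3.32% and 11.2% of all Cox6b1 and Cox6b2 UMIs, with 24 cells behind the tumor WT value. Both tumor libraries lay below both normal ones. Monocyte/macrophage-like cells held 11.5, 5.55, 5.79 and 4.597 CPM and neutrophil-like cells 0, 0, 0 and 6 UMIs. In neutrophil-like cells, 0.243% (0.0893 to 0.528) held a UMI, against 52.4% (50.1 to 54.7) of alveolar macrophage-like cells, at median depths of 2832 and 11852 UMIs.

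Other restricted forms were rare. Cox7a1, the heart and muscle form of subunit 7a, held 543 UMIs, 51.6% of them in cluster 0 (12.6 CPM). Cox4i2, the form of subunit 4 known from lung and hypoxia, held 73 UMIs, of which 28 lay in monocyte/macrophage-like cells of tumor Rab37 KO. Ndufa4l2 held 61 and Cox8b 25 UMIs. Of the 3 genes for the identical c subunit of ATP synthase, Atp5g1 took 23.5%, 25.4%, 33.9% and 29.8% and Atp5g2 53.4%, 51.8%, 45.9% and 43.6% of their UMIs in monocyte/macrophage-like cells, so the Atp5g1 share was higher in both tumor libraries and the Atp5g2 share lower.

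**Figure D4:**
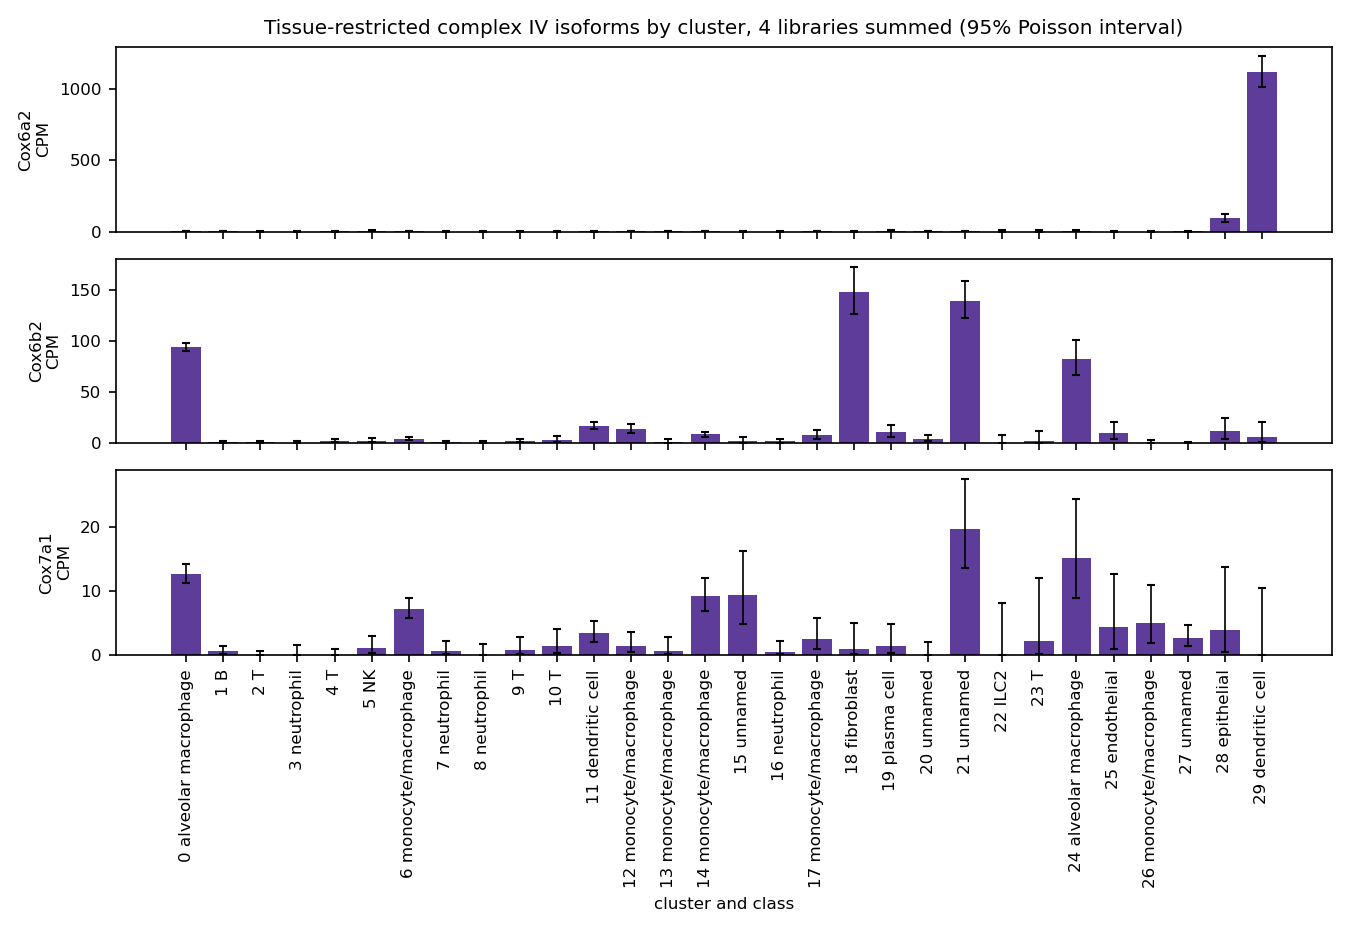
CPM (y axis, a separate linear scale for each gene) of Cox6a2, Cox6b2 and Cox7a1 in each cluster (x axis) with the 4 libraries summed and 95% Poisson intervals as bars. Cox6a2 reaches 1121 CPM in dendritic cell-like cluster 29, while Cox6b2 is highest in fibroblast-like cluster 18 at 147.7 CPM and high in unnamed cluster 21, led by Mki67, and reaches 93.6 CPM in alveolar macrophage-like cluster 0.

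Other mitochondrial and energy genes were counted from lists beside the members. In WT monocyte/macrophage-like cells, 48 of 77 mitochondrial ribosome genes were higher in tumor and 1 lower (median log2 0.70), and 15 of 42 assembly factor genes higher and 1 lower (0.34). Among 7 measured subunits and carriers outside the symbol rule, 5 were higher and 0 lower, with Atpif1, the inhibitor of ATP synthase, at 129.4 and 468.9 CPM (ratio 3.62) and the complex I acyl carrier gene Ndufab1 at a ratio of 2.14. The 17 tricarboxylic acid cycle genes had a median of 0.09, with 3 higher and 2 lower. Of all measured genes, 20.9% were higher and 26.8% lower in this comparison, with a median of -0.09. The differences between the lists were not tested.

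Glycolysis genes went apart from the nuclear subunits in the comparison of the tumor libraries. They were higher in tumor than normal monocyte/macrophage-like cells of both genotypes, with 12 of 16 higher and 1 lower in WT (median log2 1.55) and 16 of 16 higher in Rab37 KO (1.77), where 17.6% of all genes were higher. Tpi1, triose phosphate isomerase, stood at 101.1 and 513.8 CPM in WT and 84.2 and 662.4 CPM in Rab37 KO. In tumor Rab37 KO over WT, 8 of 16 glycolysis genes were higher and 0 lower (0.56), among them the glucose transporter gene Slc2a1 (3.95) and the lactate transporter gene Slc16a3 (3.05). In the same comparison 45 of 77 mitochondrial ribosome genes (-0.65), 24 of 43 assembly factors (-0.69) and 3 of 17 cycle genes (-0.15) were lower, and 0 were higher, beside 20.7% of all genes lower and 22% higher. Atpif1 had a ratio of 0.43.

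In Rab37 KO monocyte/macrophage-like cells, the tumor to normal medians of the ribosome (0.11), assembly (-0.14) and cycle lists (-0.09) lay near 0. Of 12 dissociation stress genes, 8 were lower and 0 higher in WT tumor cells of the class (median log2 -0.94) and 6 lower and 1 higher in Rab37 KO, beside 26.8% and 22.7% of all genes lower. The heat shock gene Hspa1b was counted at 3727 CPM in normal WT and 348.5 CPM in tumor WT. The part of dissociation stress in the subunit ratios was not tested. Of 13 measured regulators of mitochondrial genes, 2 were higher and 3 lower in WT tumor cells, near the shares of all genes (20.9% and 26.8%), with Hif1a at ratios of 2.04 in WT and 3.14 in Rab37 KO.

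In WT tumor over normal neutrophil-like cells, where 39.9% of all genes were higher and 14.6% lower (median log2 0.37), 26 of 37 mitochondrial ribosome genes were higher and 0 lower (median log2 0.66), and 13 of 16 glycolysis genes higher and 1 lower (0.87), with the hexokinase gene Hk2 at a ratio of 6.93. The assembly factor genes had a positive median (0.45) but a summed ratio of 0.70, since the copper chaperone gene Cox17 alone went from 1043 to 503.7 CPM. In Rab37 KO, 15 of 16 glycolysis genes were higher and 1 lower (1.47), beside 37.8% and 11.9% of all genes. The ribosome list had a median of 0.39 there and a summed ratio of 0.91, so its sum and median differ in direction. Between the tumor libraries, 31 of 72 ribosome genes were lower in Rab37 KO and 6 higher (-0.49), and 4 of 16 glycolysis genes higher and 0 lower (0.35), beside 21.6% of all genes lower and 14.2% higher.

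**Figure D5:**
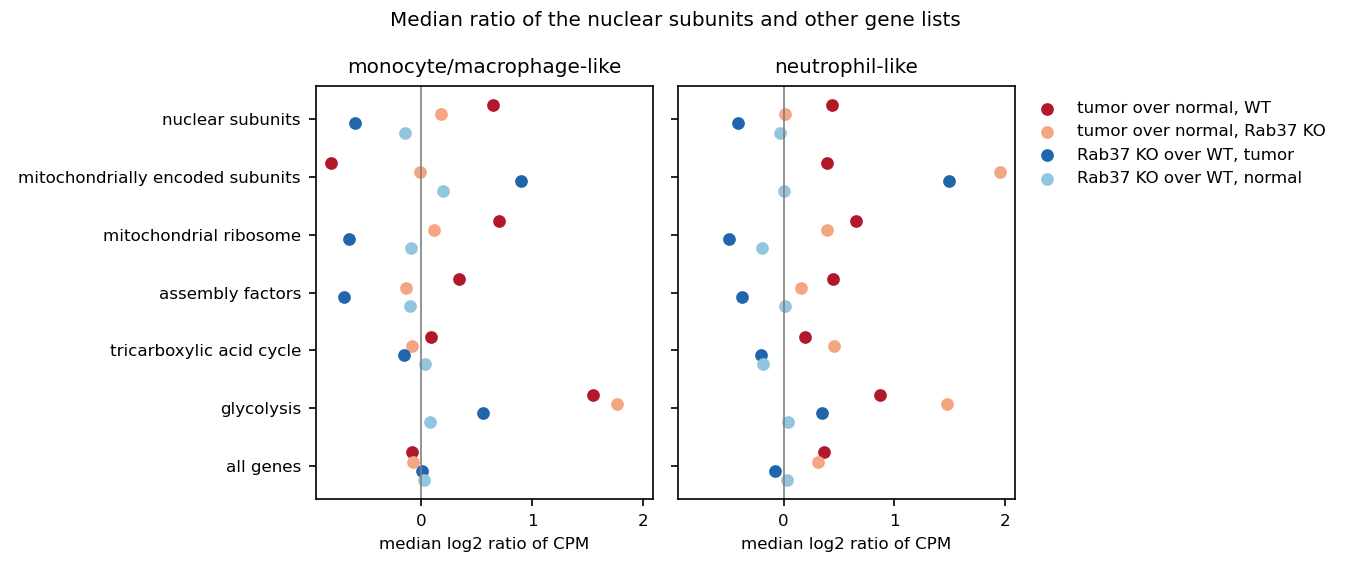
Median log2 ratio of CPM (x axis) of each gene list (y axis) in monocyte/macrophage-like (left) and neutrophil-like cells (right), 1 point for each comparison (colour), with all measured genes in the bottom row. In monocyte/macrophage-like cells the nuclear subunits (-0.60) lie left of 0 and glycolysis (0.56) right of 0 for Rab37 KO over WT in tumor.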

How the data were processed

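The authors deposited raw UMI counts per gene and barcode for each library, without normalization. The submitters' processing notes name the build mm10. No source used here names the aligner. Every deposited barcode held at least 500 UMIs. Barcodes under 200 genes or over 10% mitochondrial UMIs were dropped, and so were Scrublet doublets (179, 80, 3 and 4, or 3.41%, 1.69%, 0.464% and 0.147%). Clustering used scanpy 1.11.5, with 2000 variable genes that excluded the members, mitochondrial and sex-linked genes, Rab37 and Spp1, then 30 components, 15 neighbours and Leiden resolution 1. A cluster took the class whose markers scored at least 0.5 (mean log2 difference, pseudocount 10 CPM) with 3 markers found in 10% of its cells, limits set after clusters had been seen. Classes needed 25 cells in a library. Counts were summed over a class and scaled to CPM, with intervals from scipy 1.17.1. With 1 library in a group no p-value was computed, and the intervals do not cover variation between animals.

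The members and lists were chosen with earlier results of these data known. Named members were the 5 with the highest CPM and, in each main comparison, up to 4 each way with at least 100 CPM in the higher library, 20 UMIs in both together and an interval without 1. Also named were the 3 most and 3 least class-specific in normal WT (at least 50 CPM), every isoform gene, and up to 4 genes of each other list (at least 50 CPM). Sdha, Sdhb and the abundant examples Cox8a, Atp5e and Cox7c in the tumor comparison of the genotypes were chosen after their values were seen, as was the account of Cox7a2l across classes. Alternatives were other limits on cells, UMIs and folds, another class assignment, other scalings, thinning and cluster weights. The restriction to 1 sex and the removal of cluster 6 were added after seeing the data. Scripts were tested on simulated data.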

Additional observations from a re-analysis of the deposited data

Results flagged for a closer look

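In neutrophil-like cells, the summed level of the nuclear subunit genes had a tumor to normal ratio of 1.19 in WT and 0.90 in Rab37 KO. The ratio lay above 1 in 1 genotype and below 1 in the other, each from 1 library on either side, and the difference was not tested. Normal and tumor neutrophil-like cells lay in different clusters in both genotypes.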

How the results depend on the processing

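No ratio of the nuclear genes' summed level between libraries or classes changed its side of 1 in neutrophil-like or monocyte/macrophage-like cells under the alternatives run. The nuclear to mitochondrially encoded ratio of neutrophil-like cells did, in tumor WT at a limit of 5% mitochondrial UMIs (0.89 to 1.02) and in normal WT and Rab37 KO with no limit (1.02 to 0.87 and 1.01 to 0.72). The WT tumor to normal ratio of T-like cells changed side without mitochondrial and ribosomal protein UMIs and by own markers. The KO/WT ratio of tumor T-like cells, near 1 at 0.99, changed side under several alternatives. The Rab37 KO tumor to normal ratio of alveolar macrophage-like cells, near 1 at 0.98, did so at 5% mitochondrial UMIs. Monocyte/macrophage-like over neutrophil-like levels (2.08 and 1.94 in normal WT and Rab37 KO, 2.61 and 2.32 in the respective tumors) became 2.61, 2.39, 2.98 and 2.62 without mitochondrial and ribosomal protein UMIs. As a mean of the cells' shares, normal WT, normal Rab37 KO and tumor Rab37 KO gave 2.02, 1.89 and 2.36. Thinned to 1500 UMIs, normal WT, normal Rab37 KO and tumor WT gave 2.02, 1.80 and 2.49. Cells under 1% neutrophil markers gave 2.18, 2.09 and 2.69 in normal WT, normal Rab37 KO and tumor Rab37 KO. A limit of 5% mitochondrial UMIs gave 1.99 in normal Rab37 KO and 2.35 in tumor Rab37 KO, and classes from each cell's own markers 2.24 in the latter.

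The tumor to normal ratio of WT monocyte/macrophage-like cells (1.49) was 1.36 without mitochondrial and ribosomal protein UMIs, 1.45 as a mean of shares, 1.46 thinned, 1.45 under 1% neutrophil markers, 1.40 with clusters weighted alike, 1.44 in cells of 1 sex and 1.45 without cluster 6. That of Rab37 KO (1.08) was 1.002 without mitochondrial and ribosomal protein UMIs, 1.12 by own markers, 1.06 as a mean of shares, 1.16 under 1% neutrophil markers, 1.27 weighted, 1.10 in 1 sex and 1.24 without cluster 6. The neutrophil-like ratio in WT (1.19) was 1.14 by own markers, and that in Rab37 KO (0.90) was 0.97 by own markers, 0.84 as a mean of shares, 0.83 thinned and 0.67 weighted, which rests on cluster 3 with 10 tumor cells. In WT the libraries share no neutrophil-like cluster of enough cells, so no weighted value was had.

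The KO/WT ratio of tumor monocyte/macrophage-like cells (0.65) was 0.66 at 5% mitochondrial UMIs, 0.68 by own markers, 0.74 under 1% neutrophil markers and 0.77 without cluster 6. That of tumor neutrophil-like cells (0.73) was 0.82 by own markers, 0.71 as a mean of shares and 0.70 thinned. In normal monocyte/macrophage-like cells (0.90) it was 0.88 without mitochondrial and ribosomal protein UMIs, 0.89 thinned, 0.93 under 1% neutrophil markers and 0.89 weighted. The cause was not tested in any of these. At 2-fold, 16 members were higher in WT tumor monocyte/macrophage-like cells in place of 48, and 10 lower in tumor Rab37 KO over WT in place of 45. The shares of all genes at 2-fold were not counted, so these counts show only the effect of the limit. No paired analysis was possible because each group is 1 library.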
